A study of Mus musculus with 2 samples.

Results

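The genes described here code for the proteins of the mitochondrial ribosome and were followed in captured mouse Purkinje cells. Members were the protein-coding genes whose symbol in GENCODE M21 is Mrpl or Mrps followed by a digit, and 77 of the 21474 protein-coding genes in the deposited tables met this. By symbol, 48 belong to the large subunit (Mrpl) and 29 to the small subunit (Mrps). The choice used gene names only and no measured value, though it was made with earlier results of these data known.

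RNA was sequenced from 2 pools of 30 Purkinje cells, the inhibitory output neurons of the cerebellar cortex, cut out by laser capture from male B6CASTF1/J mice, the F1 cross of Castaneus and C57Bl, at 14 months of age. The pools are biological replicates 1 and 2 in the labels, called pool 1 and pool 2 below. The labels give no treatment, and put the same donor identifier on both. Nothing in them says that the pools came from separate animals, so every SD and p-value reflects just how far these pools lie apart, and that distance may be technical. Total RNA with added spike-in RNA was amplified with the SMARTer Ultra Low kit, and the deposited tables give expected counts (estimated reads) and TPM (a share of transcripts, corrected for transcript length) for each pool.

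Expected counts over the gene rows came to 31437230 for pool 1 and 28591242 for pool 2. Spike-in RNA took 0.211% of all counts in pool 1 and 0.411% in pool 2. All 8 Purkinje cell markers were detected, at a summed TPM of 49249 and 47781. Of 7 markers of Bergmann glia and astrocytes, the glia that wrap Purkinje cells, 6 were detected, at a summed TPM of 2028 in pool 1 and 3584 in pool 2, so the levels given here are those of pools that also held RNA of other cells. Haemoglobin and other red blood cell markers summed to 2453 in pool 1 and 16.3 in pool 2. In pools of this kind, fewer cells of a type and less RNA per cell cannot be told apart.

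Mitochondria carry their own ribosome, with RNAs transcribed from mitochondrial DNA and proteins that are encoded in the nucleus, made in the cytosol and imported. It makes the membrane-embedded core subunits of the respiratory chain and of ATP synthase, on which neurons that fire as fast as Purkinje cells rely. Some of its proteins descend from those of the bacterial ribosome, others occur only in mitochondria, and inherited defects in several of them impair oxidative phosphorylation.

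The promoters of the members that lead the results are shown first, because nuclear genes for mitochondrial proteins are known for binding sites of NRF1, of ETS family factors such as GABP (also called NRF2) and of YY1. Sequences are from RefSeq on GRCm38.p6, the mm10 assembly, and run from 250 bases before to 50 bases after the gene's start, 5′ to 3′ on the gene's strand. Capitals mark each match, on either strand, to GCGCANGCG (NRF1 core), CCGGAAG (ETS core) or AAGATGGCG (YY1 core). The promoters of Mrps33 (chr6:39810887-39811186, minus strand), Mrps21 (chr3:95871465-95871764, minus), Mrpl42 (chr10:95501900-95502199, minus) and Mrps18c (chr5:100798509-100798808, plus) belong to the 4 members of highest TPM. That of Mrps11 (chr7:78782881-78783180, plus) overlaps in part with that of Mrpl46 (chr7:78783040-78783339, minus), which starts on the opposite strand. The window of Mrpl46 held none of the motifs, and the match marked for Mrps11 lies outside it.
Mrps33: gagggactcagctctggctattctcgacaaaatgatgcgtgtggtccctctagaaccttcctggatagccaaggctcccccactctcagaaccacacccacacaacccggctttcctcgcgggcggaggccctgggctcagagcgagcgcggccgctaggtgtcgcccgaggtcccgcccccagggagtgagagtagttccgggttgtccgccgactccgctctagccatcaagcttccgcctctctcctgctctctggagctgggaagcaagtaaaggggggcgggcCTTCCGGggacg
Mrps21: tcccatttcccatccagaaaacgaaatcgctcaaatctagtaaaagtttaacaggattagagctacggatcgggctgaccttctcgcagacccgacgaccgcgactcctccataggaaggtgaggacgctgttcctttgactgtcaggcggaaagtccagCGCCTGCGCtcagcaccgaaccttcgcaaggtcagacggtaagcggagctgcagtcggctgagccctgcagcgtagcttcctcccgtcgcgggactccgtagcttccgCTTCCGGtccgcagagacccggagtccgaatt
Mrpl42: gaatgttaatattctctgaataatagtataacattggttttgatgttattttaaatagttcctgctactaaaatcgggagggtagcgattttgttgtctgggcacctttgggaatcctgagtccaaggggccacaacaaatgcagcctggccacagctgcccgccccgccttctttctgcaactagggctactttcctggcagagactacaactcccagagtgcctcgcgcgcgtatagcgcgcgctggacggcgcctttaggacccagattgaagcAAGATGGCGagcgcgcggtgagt
Mrps18c: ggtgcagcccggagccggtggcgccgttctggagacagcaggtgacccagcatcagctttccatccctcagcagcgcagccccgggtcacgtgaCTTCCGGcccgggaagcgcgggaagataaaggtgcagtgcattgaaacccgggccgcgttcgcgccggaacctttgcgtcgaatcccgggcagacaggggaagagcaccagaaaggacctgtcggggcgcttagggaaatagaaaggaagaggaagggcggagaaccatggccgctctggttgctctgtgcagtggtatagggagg
Mrps11: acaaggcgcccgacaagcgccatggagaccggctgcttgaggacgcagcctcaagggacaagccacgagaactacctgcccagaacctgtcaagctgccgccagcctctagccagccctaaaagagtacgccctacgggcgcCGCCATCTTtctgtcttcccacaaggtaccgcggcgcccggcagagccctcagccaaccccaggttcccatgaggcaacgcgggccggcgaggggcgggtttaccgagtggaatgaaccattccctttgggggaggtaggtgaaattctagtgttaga

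The promoter table held 68 of the 77 members, with 74 windows. Of these 68 genes, 41 (60.3%) had at least 1 of the motifs in a window, against 39.0% of the detected protein-coding genes and 21.8% of all protein-coding genes in the table. The ETS core was the most frequent, in 25 members (36.8%, against 22.3% of detected genes), as in Mrps33, Mrps18c and Mrps21 above. The NRF1 core was in 16 members (23.5% against 18.6%), among them Mrps21. The YY1 core was in 8 members (11.8% against 4.45%), namely Mrpl35, Mrpl36, Mrpl37, Mrpl42, Mrps11, Mrps18a, Mrps24 and Mrps27. Of all 32851 windows in the table, 6.25% held the NRF1 core, 8.86% the ETS core and 1.40% the YY1 core. The median GC content of the members' windows was 58.8%, against 61% for detected and 56.3% for all protein-coding genes. A match is a description of the sequence only, and a window without one says only that these letters are not in it.

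Every member was detected. All 77 reached 1 TPM in each pool, a level reached by 30.3% of all protein-coding genes (6506 of 21474), so no member was undetected in either pool. The member closest to that threshold was Mrpl19, at 1.80 TPM in pool 1 and 1.31 TPM in pool 2, which rested on 209 and 203 counts. The smallest count behind any member was 91, for Mrpl2 in pool 2. At stricter thresholds, 59 members reached a TPM of 5 and 38 a TPM of 10 in both pools. The shares of all protein-coding genes at these thresholds were not computed, so these counts describe the members only.

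On the log2(TPM + 1) scale the members' median was 3.69 for pool 1 and 3.90 for pool 2, which gives 3.79 ± 0.15 (mean ± SD, n = 2). The detected protein-coding genes had medians of 2.48 and 2.77 on the same scale, and 66 members (85.7%) lay above their median level over both pools. In TPM, the median member was at 12.1 and the median detected gene at 5.24. The cytosolic ribosomal protein genes (Rpl and Rps symbols, 92 genes), which serve the other ribosome of the cell, had higher medians of 7.65 and 7.83. The 37 complex I genes with an Nduf symbol, whose core partners the mitochondrial ribosome makes, had medians of 8.40 and 8.96. Both of these sets were chosen by symbol alone, so they can hold genes whose products are not part of the complex named. Together the members took 0.282% (95% exact binomial interval 0.280% to 0.284%) of the counts in pool 1 and 0.286% (0.284% to 0.288%) in pool 2. Such intervals cover counting error only, since amplified reads without molecular identifiers are not independent molecules.

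**Figure D1:**
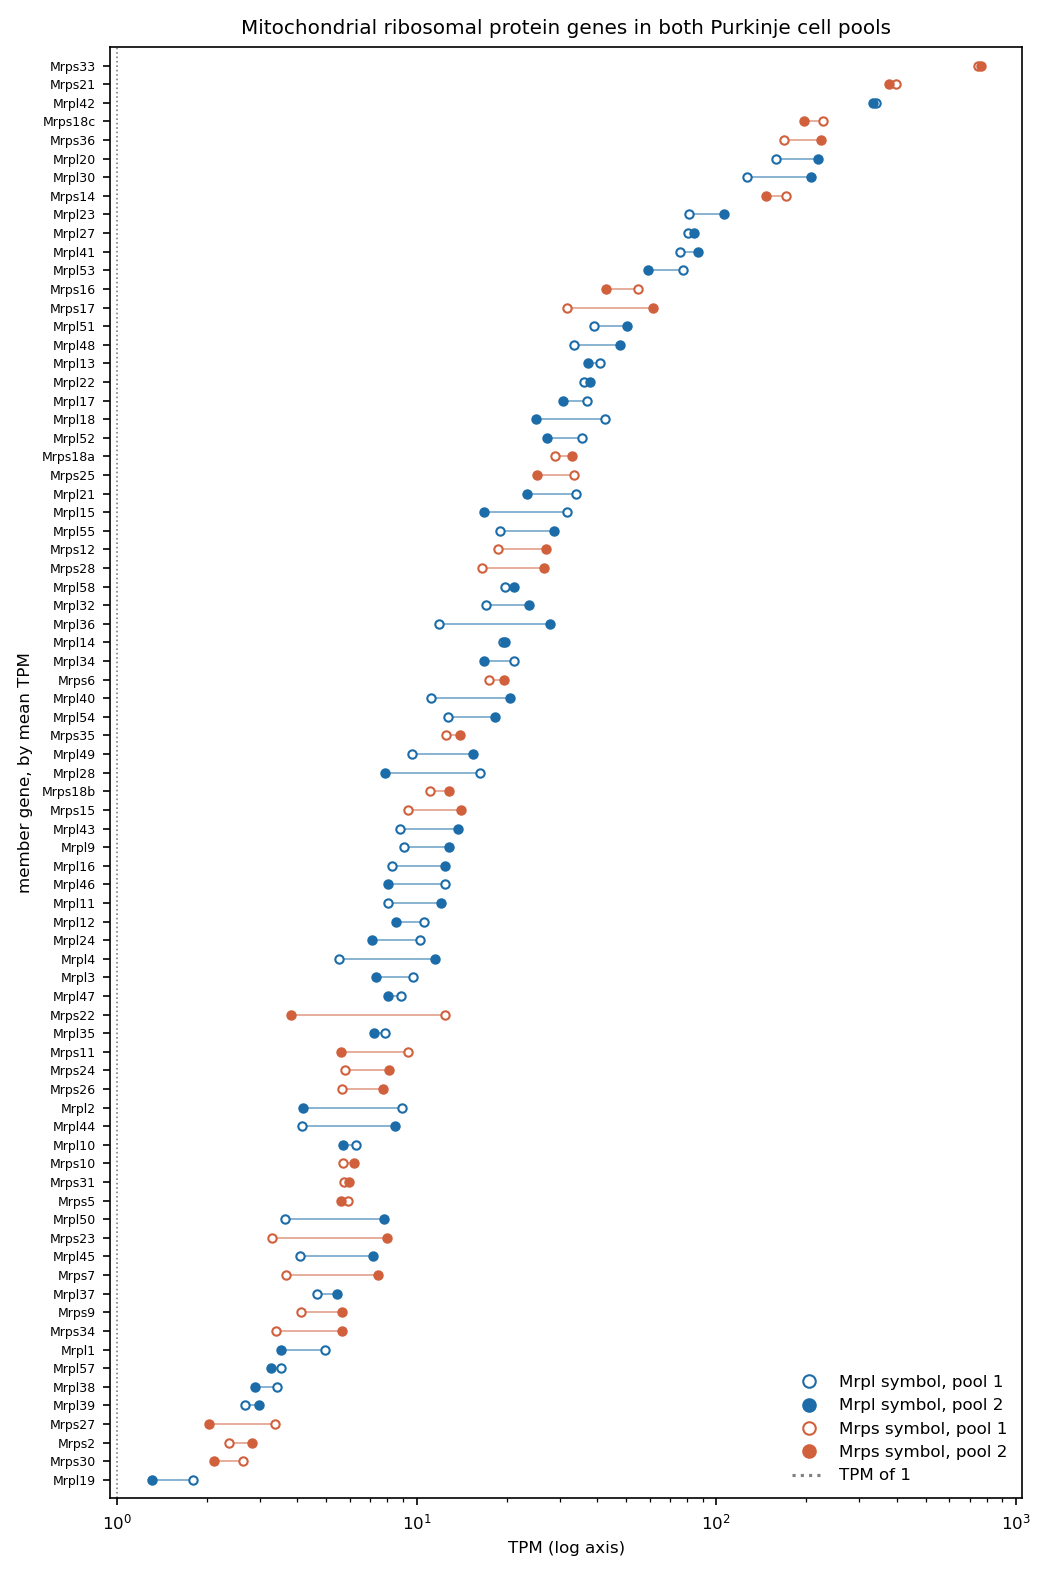
TPM of each of the 77 members on a log axis, 1 row per gene ordered by mean TPM, with open points for pool 1, filled points for pool 2, blue for Mrpl and orange for Mrps symbols. All points lie to the right of the dotted line at a TPM of 1, from Mrpl19 at 1.31 in pool 2 to Mrps33 at 763 in pool 2.

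A few members carried most of the summed TPM. The members summed to 3596 TPM in pool 1 and 3813 TPM in pool 2, of which the highest gene held 20.7% and 20.0%, the highest 3 held 41.3% and 38.6%, and the highest 10 held 69.4% and 69.6%. Mean TPM was above 100 in 8 members, from 10 to 100 in 38 and under 10 in 31. From Mrpl19 to Mrps33 the mean TPM spanned a 485-fold range, and 12 members were in the top 10% of detected protein-coding genes.

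Mrps33 (ENSMUSG00000029918.8, chr6:39801804-39810988, minus strand), a small subunit protein found only in mitochondria, was highest, at 745 TPM in pool 1 and 763 TPM in pool 2 (754 ± 12.5, SD, n = 2). Its counts were 15504 and 12942. Both pools placed it well above every other member.

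Mrps21 (chr3:95862634-95871519, minus), the relative of bacterial S21, followed at 398 TPM in pool 1 and 378 TPM in pool 2. Mrpl42 (chr10:95480805-95501940, minus), the highest large subunit gene, was at 342 and 333. The ranges of these genes over the pools did not overlap with each other, so the order Mrps33, Mrps21, Mrpl42 was the same in both pools.

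Mrps18c (chr5:100798627-100804471, plus) is 1 of 3 genes related to bacterial S18. It stood at 228 TPM in pool 1 and 196 TPM in pool 2, while Mrps18a was at 28.9 and 33.1 and Mrps18b at 11.1 and 12.8. Mrps18c was therefore the highest of the 3 in both pools. The product of Mrps18a sits in the large subunit despite its symbol, and that of Mrps18b in the small subunit.

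Mrps36 (chr13:100735955-100744659, minus) was at 168 TPM in pool 1 and 223 TPM in pool 2. Its product is now known as an adaptor of the 2-oxoglutarate dehydrogenase complex rather than a ribosomal protein, so its symbol alone makes it a member. Mrpl20 (chr4:155802878-155809975, plus) was at 158 and 219, and Mrpl30 (chr1:37890477-37898535, plus) at 126 and 207; both code for relatives of bacterial large subunit proteins. Mrps14 (chr1:160195215-160202170, plus), the relative of bacterial S14, was at 170 and 147. From Mrps18c down to Mrps14 the ranges over the pools overlapped with those of neighbours, so the full order of these 5 genes was not resolved. The ranges of Mrps18c and Mrps14 did not overlap with each other, and Mrps18c was higher in both pools.

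The other members among the 10 highest were Mrpl23, at 81.0 in pool 1 and 106 in pool 2, and Mrpl27, at 80.6 and 84.0, both relatives of bacterial proteins of the same number. A processed pseudogene of Mrpl23, Mrpl23-ps1, held 1109 and 677 expected counts beside 1463 and 1672 for the gene, so the split of reads between them bears on its level. Pseudogene rows of Mrps36 and Mrpl48 held under 100 counts each. At the low end, Mrps30, whose product is part of the large subunit, was at 2.64 and 2.11, Mrps2 at 2.37 and 2.83, and Mrpl39 at 2.68 and 2.98. Mrps30 was below Mrpl39 in both pools, while the range of Mrps2 overlapped with both.

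Among the proteins of the L7/L12 stalk and its base, which recruit the translation factors, 5 of 5 genes were detected, with medians of 3.53 and 3.71 on the log2(TPM + 1) scale. Mrpl53, which has no bacterial counterpart, was the highest of them at 77.7 TPM in pool 1 and 59.1 TPM in pool 2. Mrpl12, the L7/L12 protein itself, was at 10.6 and 8.53. Its anchor Mrpl10 was at 6.30 and 5.67, and Mrpl11, at the stalk base, at 8.02 and 12.1. The last of the group, Mrpl54, was at 12.7 and 18.2.

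Around the exit of the peptide tunnel, where the new chain meets the inner membrane, 5 of 5 genes were detected, with medians of 3.50 and 3.17. Mrpl23 was highest and Mrpl22 next, at 36.2 TPM in pool 1 and 37.9 TPM in pool 2. Mrpl24 was at 10.3 and 7.12 and Mrpl47 at 8.89 and 8.03. Mrpl45, which anchors the ribosome to the membrane, was at 4.08 and 7.15. By the TPM of the whole gene, Mrpl23 and Mrpl22 stood above the other members of this group in both pools.

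In the central protuberance, the region of the large subunit that faces the small one, 6 of 6 genes were detected, with medians of 4.06 and 4.45. Mrpl48 was at 33.6 TPM in pool 1 and 47.8 TPM in pool 2, and Mrpl52 at 35.7 and 27.2. Mrpl58, also known as ICT1, a peptidyl-tRNA hydrolase built into the ribosome, was at 19.8 and 21.1. Mrpl40 was at 11.2 and 20.5 and Mrpl46 at 12.4 and 8.02. Mrpl38 was lowest in both pools, at 3.43 and 2.89.

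Split by symbol, the medians of large and small subunit genes differed little. The median TPM of the 48 Mrpl genes was 12.2 in pool 1 and 16.1 in pool 2, and that of the 29 Mrps genes 11.1 and 12.8. On the log2(TPM + 1) scale the large minus small difference was 0.12 and 0.31, a mean of 0.21 ± 0.13 (SD, n = 2), which is small beside the spread among members of either subunit. Without the 32 members whose exons overlap another gene the difference turned to -0.18 ± 0.020, and from transcripts typed as coding it was 0.66 ± 0.046. Overlapping members were left out whatever the level of the other gene. Among them was Mrps18c, whose overlapping gene had no deposited value. Genes are not replicates, so no p-value was computed across them.

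Over all members the sums ran the other way, but the direction turned without Mrps33, and the gap was smaller with genes placed by structure. Mrpl genes summed to 1579 TPM in pool 1 and 1753 TPM in pool 2, and Mrps genes to 2017 and 2060, a ratio of 0.783 and 0.851. On the log2 scale that ratio was -0.29 ± 0.086 over the pools, without Mrps33 it was 0.37 ± 0.087, and with genes placed by structure, as described next, it was -0.09 ± 0.12. In counts, which favour long transcripts, the shares were alike in pool 1, at 0.141% for large and 0.141% for small subunit genes. In pool 2 they were 0.151% and 0.135%.

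Placing genes by structure, with Mrps18a and Mrps30 in the large subunit and Mrps36 in neither, gave 50 and 26 genes and a median difference of 0.23 in pool 1 and 0.61 in pool 2. Members classed as homologues of bacterial ribosomal proteins (45 genes) were higher at the median than those classed as mitochondria-specific (31 genes, with Mrps18a and Mrps18b counted here despite their relation to S18) by 0.52 in pool 1 and 0.36 in pool 2 (0.44 ± 0.11). By class, the medians in pool 1 and pool 2 were 4.12 and 4.15 for 29 large subunit genes with a homologue and 3.61 and 4.04 for 21 without. They were 3.75 and 4.14 for 16 small subunit genes with a homologue. The 10 small subunit genes classed as mitochondria-specific had the lowest medians, 3.17 and 3.14, although Mrps33 is among them.

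**Figure D2:**
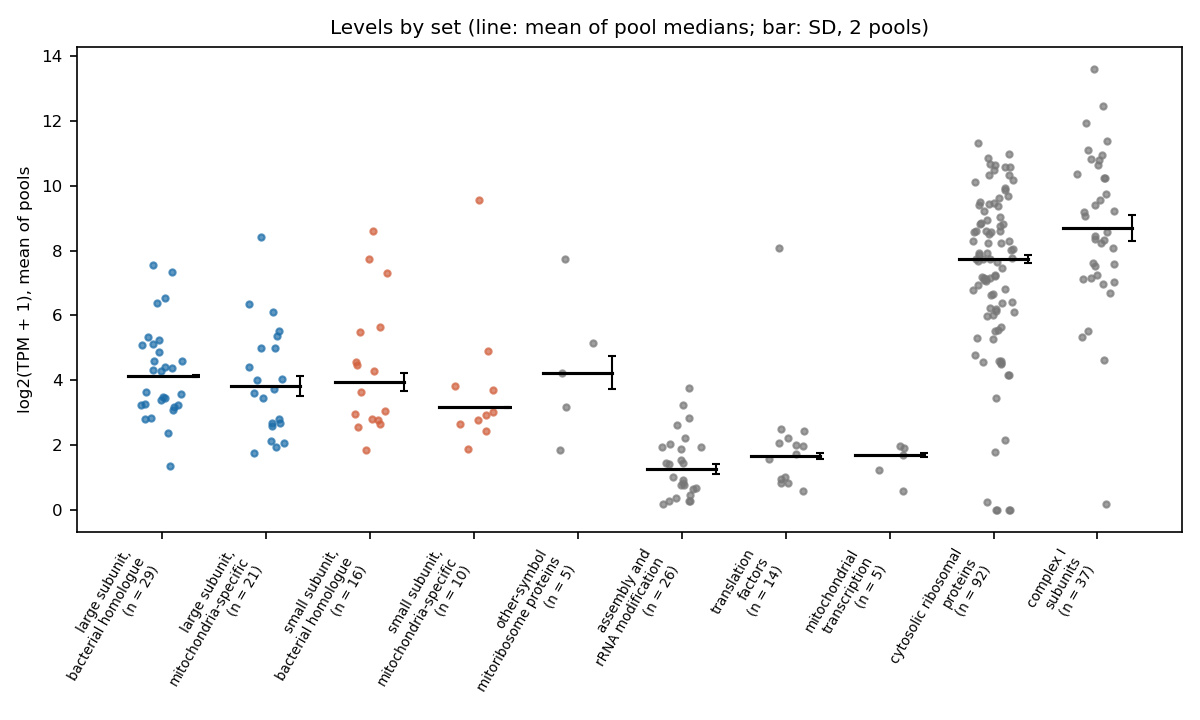
Level of each gene on the log2(TPM + 1) scale, mean of both pools, for the 4 classes of members, 4 related lists, cytosolic ribosomal protein genes and complex I genes; lines are the mean of the pool medians and bars the SD over 2 pools. The members' classes lie between the assembly, translation factor and transcription lists below and the cytosolic ribosomal protein and complex I genes above, and Mrps33 stands apart at the top of the small subunit, mitochondria-specific class.

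Level fell with transcript length among the members. Across the 77 genes, Spearman's rho of TPM with transcript length was -0.77 in pool 1 and -0.75 in pool 2, with Pearson's r of -0.69 in both for log2 values. The detected protein-coding genes gave a rho of -0.34 in each pool. These genes share the library and the length correction and are not independent replicates, so the values describe these pools. Members have short transcripts, with a median length of 942 bases against 2167 for detected protein-coding genes, and a median coding length of 588 against 1188 bases.

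Set beside genes of like length, the members differed less from other genes. Under 700 bases, 20 members had a median log2(TPM + 1) of 5.53 and 431 detected protein-coding genes one of 6.06. From 700 to 1000 bases the medians were 4.42 for 21 members and 3.81 for 676 genes. From 1000 to 1500 bases they were 3.24 for 18 members and 3.01 for 961 genes, a gap seen in pool 1 (3.30 against 2.85) and not in pool 2 (3.17 for both). From 1500 bases on they were 2.69 for 18 members and 2.30 for 4438 genes. Mrps33, with a mean transcript length of 598 bases, and Mrps21, with 439, belong to the shortest bin, and Mrpl19, with 3749, to the longest. TPM of short transcripts depends strongly on the length correction, whose part in these values was not tested.

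**Figure D3:**
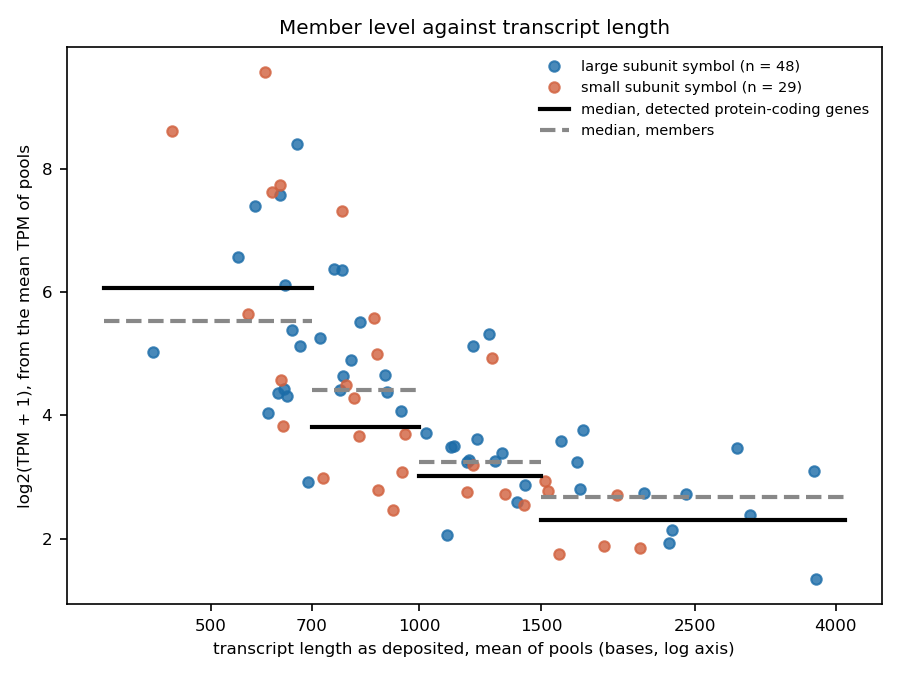
Level of each member on the log2(TPM + 1) scale, from the mean TPM of both pools, against transcript length on a log axis, in blue for Mrpl and orange for Mrps symbols; solid lines are medians of detected protein-coding genes in 4 length bins and dashed lines those of the members. Members lie below the solid line at the median under 700 bases (5.53 against 6.06) and above it in the 3 longer bins by the mean of the pools, though from 1000 to 1500 bases in pool 1 only.

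Transcript annotation adds a second view of the levels. For 58 members with at least 2 annotated transcripts, the transcript with the highest TPM was the same in both pools in 57, against 86.9% of 5016 protein-coding genes chosen in the same way. Ranked by expected count in place of TPM, it was the same in 52 of 58, a ranking for which the share of other genes was not computed. The exception by TPM was Mrpl1, a large subunit protein, where 1 coding transcript held 51.3% of the gene's TPM in pool 1 and another coding transcript held 96.2% in pool 2. The leading transcript of the members held a median of 83.8% in pool 1 and 85.1% in pool 2 of the gene's TPM, against 93.0% and 93.8% for protein-coding genes. It was typed as protein-coding in 45 of the 58 (77.6%, against 76.4%).

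In 13 members (16.9%, against 14.3% of detected protein-coding genes) under 50% of the TPM lay in transcripts typed as protein-coding in both pools. For Mrps14 that share was 5.85% in pool 1 and 8.15% in pool 2, because a transcript typed as a target of nonsense-mediated decay held 94.2% and 91.9%. From coding transcripts alone Mrps14 was at 9.97 TPM and 11.97 TPM. For Mrpl23 the share was 7.73% and 11.5%, since a transcript typed as processed, without a coding frame, held 92.2% and 88.4%. From coding transcripts alone Mrpl23 was at 6.26 TPM and 12.25 TPM, below Mrpl22 at 35.5 and 37.41. Neither Mrps14 nor Mrpl23 was then among the 10 highest members. Mrpl32, whose single transcript in the deposited tables is typed as a decay target, and Mrpl38 had 0% in both pools. Types are those of GENCODE M21, while the deposited text names M4, so a coding transcript absent from the deposited tables could not count here. Mrps33 kept 76.6% and 76.9%, a mean coding TPM of 578, and stayed the highest member. The split between transcripts of a gene is the authors' estimate from short reads, and its error was not tested here.

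**Figure D4:**
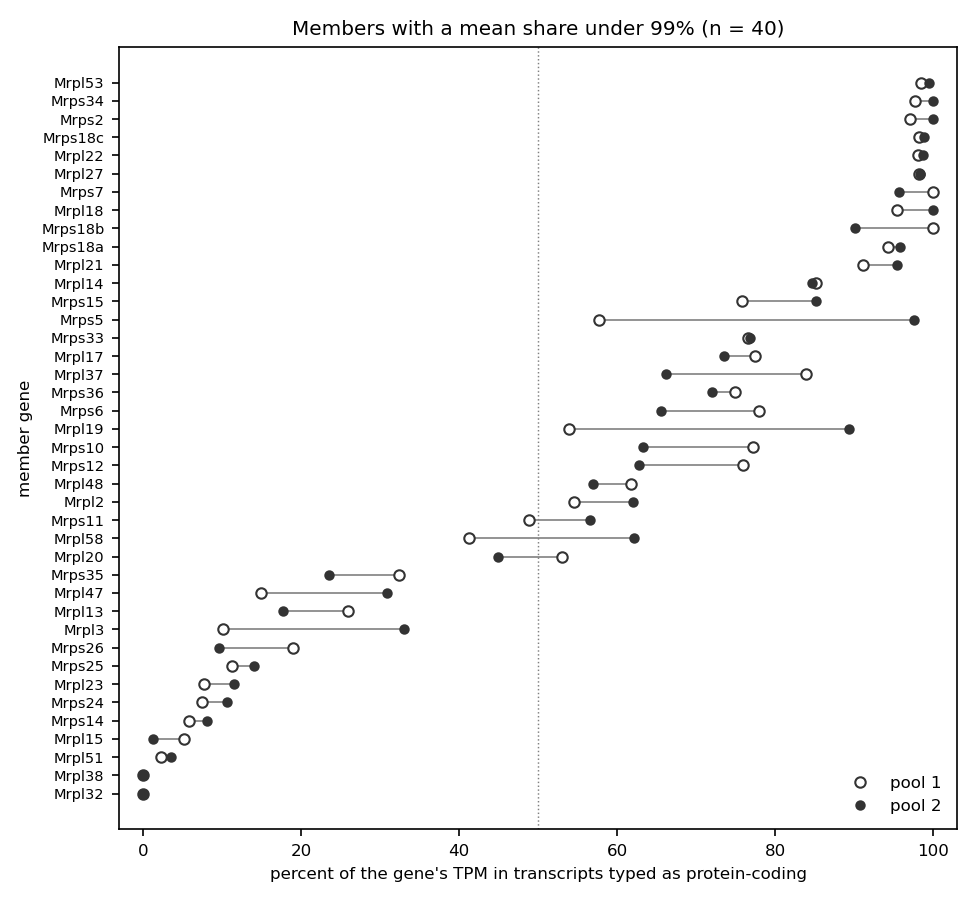
Percent of each gene's TPM in transcripts typed as protein-coding, for the 40 members with a mean share under 99%, with open points for pool 1 and filled points for pool 2; the dotted line marks 50%. The 13 genes left of the line in both pools include Mrps14, Mrpl23, Mrpl32 and Mrpl38, and the pools lie close together for most genes.

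The members' levels in the pools were alike in order: across the 77 genes, Pearson's r between pools was 0.957 and Spearman's rho 0.916 for log2(TPM + 1), against 0.970 and 0.920 for detected protein-coding genes. Each gene's counts were then compared between the pools with a two-sided exact binomial test on TMM-scaled totals (a scaling by the bulk of genes), adjusted over all 14495 genes tested. This compares 2 libraries and not conditions. At an adjusted p under 0.05, 57 of 77 members differed, against 65.8% of all genes tested and 73.0% of the 6571 protein-coding genes in the members' range of counts. Pool 2 was the higher one for 25 of them (33.3% of all genes) and pool 1 for 32 (32.5%), and 5 passed 2-fold (31.5% of all genes, and 12.4% of those of like counts). By subunit, 40 of 48 Mrpl genes and 17 of 29 Mrps genes differed.

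The members' median log2 ratio of counts, pool 2 over pool 1, was -0.13, and that of all genes tested -0.0063. Scaling by total counts moved the median of all genes to 0.19 and scaling by spike-in counts to -0.78, and the members moved with it. Under total counts 33 members were called higher in pool 2 (42.6% of all genes tested) and 27 in pool 1 (23.8%). Under spike-in counts 0 were called higher in pool 2 (10.9% of all genes) and 67 in pool 1 (65.1%). Relative to all genes tested, the members' median was 0.12 lower, a distance that no scaling of counts can change; with no filter on low counts it was 0.072 lower and from TPM + 1 it was 0.029 lower. In TPM, which is scaled in yet another way, 45 of 77 members were higher in pool 2, and their median log2 ratio was 0.10 against 0.19 for detected protein-coding genes.

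The widest gap was in Mrps22, a small subunit protein found only in mitochondria and known from inherited deficiency of oxidative phosphorylation. Its counts were 555 in pool 1 and 146 in pool 2, a log2 ratio of -1.98 under TMM (adjusted p = 2.463e-59, exact binomial test). Mrpl28 had 597 and 261 counts, a ratio of -1.25 (adjusted p = 5.290e-33). Mrpl15 had 992 and 480 counts, a ratio of -1.11 (adjusted p = 1.129e-44). Mrpl2, near the catalytic centre, had 203 and 91 counts and Mrps27 240 and 124, with ratios of -1.21 and -1.01. These 5 genes were lower in pool 2 under all scalings tried.

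In the other direction, Mrps23 had 165 counts in pool 1 and 344 in pool 2, a log2 ratio of 1.00 under TMM (adjusted p = 3.505e-13, exact binomial test). Mrpl36, the relative of bacterial L36, had 386 and 780 counts, a ratio of 0.96 (adjusted p = 7.915e-27). Mrpl50 had 298 and 550, Mrpl4 266 and 480 and Mrpl44 223 and 394, with ratios of 0.82, 0.79 and 0.76. Under spike-in scaling none of these 5 passed the threshold, with ratios of 0.23, 0.18, 0.05, 0.02 and -0.0097 in the same order.

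Markers of other cells moved between the pools as well. Of 7 glial markers 5 were higher in pool 2 under TMM, all 4 red blood cell markers tested were higher in pool 1, and 7 of 8 Purkinje markers were higher in pool 1. Interneuron, oligodendrocyte, microglia and endothelial lists had 1 of 4, 2 of 5, 1 of 5 and 1 of 5 markers detected in both pools, and the granule cell list 4 of 5 with summed TPM of 24.0 and 31.99. The summed TPM of the first 4 lists ran from 2.99 (microglia, pool 2) to 19.8 (oligodendrocyte, pool 2), and none of their markers was listed at 0. The part of these cells in the members' differences was not tested.

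**Figure D5:**
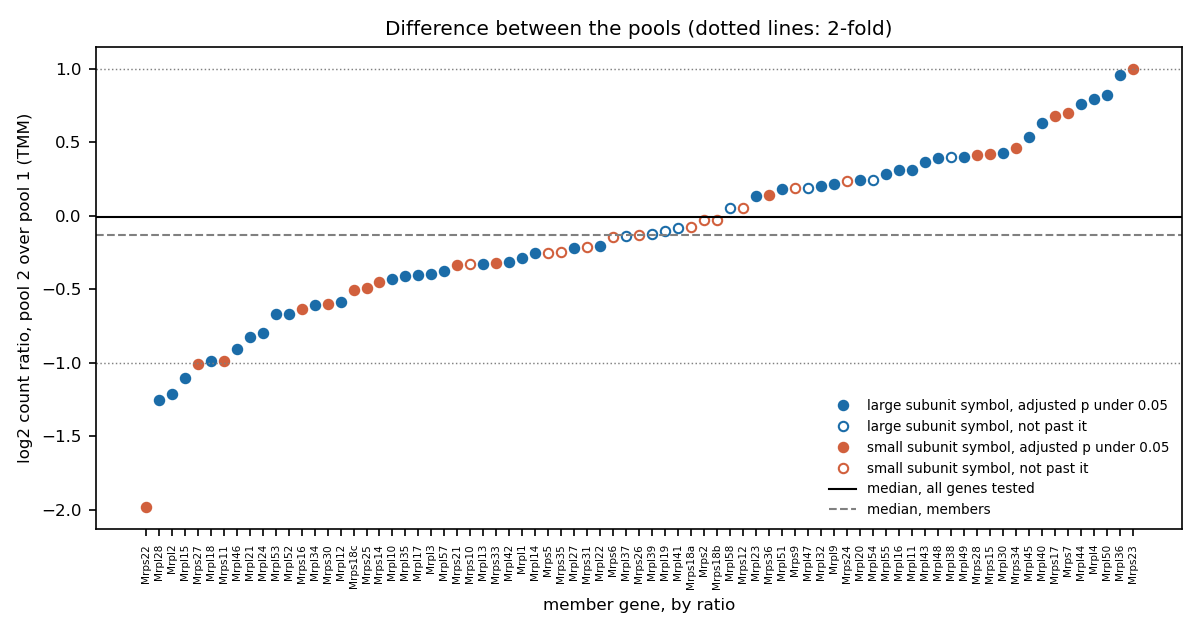
Log2 ratio of TMM-scaled counts, pool 2 over pool 1, for the 77 members in order of the ratio, in blue for Mrpl and orange for Mrps symbols, filled where the adjusted p was under 0.05; the solid line is the median of all genes tested, the dashed line that of the members and dotted lines mark 2-fold. Mrps22 at -1.98 lies apart at the low end and Mrps23 at 1.00 is the highest; a shift to spike-in scaling lowers all points alike.

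Genes known for combined oxidative phosphorylation deficiency in people numbered 15 among the members and were all detected, with median levels of 3.42 in pool 1 and 3.14 in pool 2. Under TMM pool 2 was higher for 6 (33.3% of all genes tested) and pool 1 for 7 (32.5%), Mrps22 and Mrps23 being the extremes. Mrps34, among them, was at a TPM of 3.40 and 5.66.

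The 5 mitoribosome proteins that carry other symbols were all detected too. Chchd1, a small subunit protein, was at 197 TPM in pool 1 and 231 TPM in pool 2, at the height of Mrps18c. Aurkaip1 was at 26.6 and 44.0, Dap3, the GTP-binding protein of the small subunit, at 13.6 and 23.0, and Ptcd3 at 7.21 and 9.09. Gadd45gip1, of the large subunit, was lowest at 2.32 and 2.90. Of the 5, 2 differed between the pools under TMM, both higher in pool 2 (33.3% of all genes tested).

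Genes that build or serve the ribosome were lower than its proteins. Of 26 assembly and rRNA modification genes 13 reached 1 TPM in each pool, with medians of 1.15 and 1.36 on the log2(TPM + 1) scale. Mpv17l2 led with 11.7 TPM in pool 1 and 13.2 TPM in pool 2, followed in mean TPM by Noa1, a GTPase of ribosome assembly, at 6.02 and 11.8. Under TMM, 7 of the 26 were higher in pool 2 (33.3% of all genes tested) and 12 in pool 1 (32.5%).

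Of 14 translation factors and mRNA-binding partners 9 were detected in both pools, with medians of 1.59 and 1.72. Slirp, which binds mitochondrial mRNAs together with Lrpprc, was far above the rest at 251 TPM in pool 1 and 290 TPM in pool 2. The initiation factor Mtif2, second by mean TPM though in neither pool alone, was at 4.24 and 5.06. Of the 14, 3 were higher in pool 2 (33.3% of all genes tested) and 8 in pool 1 (32.5%) under TMM. Of 5 transcription genes 4 were detected, among them the polymerase Polrmt at 2.21 and 3.78 and the packaging factor Tfam at 2.49 and 2.97, and 1 of the 5 differed under TMM (65.8% of all genes tested). The mitochondrial rRNAs themselves were at a TPM of 2128 and 3008 for mt-Rnr1, of the small subunit, and 4886 and 6076 for mt-Rnr2, of the large subunit. How fully this kit captures them was not tested.

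Many members sit close to other genes. Counting starts on the opposite strand no more than 1000 bases away, 33 of 77 members (42.9%) had such a protein-coding neighbour, against 17.9% of detected and 10.9% of all protein-coding genes. In 25 of the 33 the member was higher in TPM than its neighbour in both pools, and in 6 lower in both. Of the 33 neighbours 12 were detected in both pools, beside 30.3% of all protein-coding genes. Mrpl46 and Mrps11 enter these counts from both sides, each as the other's neighbour. All members were detected, so a member above its neighbour is no result about the members. Mrpl49 and the ribosomal protein gene Fau (543 and 409), Mrpl36 and the complex I gene Ndufs6 (329 and 323) and Mrpl47 and the complex I gene Ndufb5 (578 and 602) are pairs in which the neighbour's TPM was far higher.

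Mrpl46 and Mrps11 form the only such pair of 2 members. In GENCODE M21 their starts are 412 bases apart, with 173 bases of shared exon on opposite strands. The M21 start of Mrpl46, at 78783531, lies outside its promoter window above, which rests on another start in RefSeq. Mrpl46 had 511 counts in pool 1 and 284 in pool 2, a log2 ratio of -0.91 under TMM (adjusted p = 4.110e-17, exact binomial test). Mrps11 had 318 and 167 counts, a ratio of -0.99 (adjusted p = 1.357e-12). Both were lower in pool 2, and reads from their shared bases cannot be told apart unless the counting used strand, which no source used here states.

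Exons of 32 members overlap those of another gene, of 23 those of a protein-coding gene. Overlaps were not counted for genes outside the members, so whether members overlap more often was not tested. The overlap was on the opposite strand for 28 and on the same strand for 7, and covered more than 25% of the member's exon bases in 7. On the same strand these were Mrpl53, of which 88.0% overlaps the predicted gene Gm42688 (TPM 1.49 and 0.52), and Mrps34, of which 37.0% overlaps Nme3 (10.9 and 6.37). Reads from the bases that Mrpl53 and Mrps34 share with these genes can be assigned to either. In an F1 of diverged strains, reads of the Castaneus allele may align less well to the reference, and the part of this in any level was not tested.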

How the data were processed

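RNA-seq of 2 captured Purkinje cell pools was analysed from the tables the authors deposited for each pool. Per the file headers these give, for genes and transcripts, expected counts (estimated reads, not whole where reads were shared), posterior mean counts, TPM, FPKM and, for transcripts, each one's percent of its gene's TPM. The text deposited with each sample names the mm10 assembly and GENCODE M4; no source used here gives the aligner or quantifier. Rows naming no gene held 0.000412% (pool 1) and 0.000194% (pool 2) of counts and were left out.

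Of 43346 gene identifiers, 42462 matched a GENCODE M21 symbol. M21 holds 78 protein-coding Mrpl and Mrps symbols; Mrpl33 had no row under its M21 identifier and was not analysed here. The members and lists were chosen with earlier results of these data known. The lists are the 4 structural classes, stalk, exit site, central protuberance, deficiency genes, mitoribosome proteins of other symbols, assembly, translation factors, transcription and 8 sets of cell markers.

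Levels used log2(TPM + 1), with detection at a TPM of at least 1. Expected counts were rounded, scaled by TMM (edgeR 4.0.16) and compared between the pools by a two-sided exact binomial test (scipy 1.17.1). It covered 14495 genes with at least 10 counts in total, with Benjamini-Hochberg adjustment. The procedure was tried on simulated counts that held counting error only. That trial cannot show how the test behaves on amplified reads, whose spread can be wider. DESeq2 1.42.0 size factors, total counts, spike-in totals, other filters, units and transcript sets were alternatives. Promoters came from RefSeq (GRCm38.p6), and coordinates and transcript types from M21.

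Named genes were the 10 members of highest TPM, those under the detection level, the 5 with the largest pool ratio in each direction, Mrps18a, Mrps18b, Mrps18c, Mrps30, Mrps36, members of the stalk, exit site and central protuberance, those whose leading transcript differed, those with overlapping exons and the 2 highest of each other translation list. Mrpl19, Mrpl32, Mrpl39, Mrps2, the members holding the YY1 core and the 3 lower mitoribosome proteins of other symbols were named after their values were seen.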

Additional observations from a re-analysis of the deposited data

Results flagged for a closer look

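Rows outside the comparisons, for processed pseudogenes named after members, held counts. Mrpl23-ps1 (chr2:74591330-74591909) had 1108.99 expected counts in pool 1 and 676.7 in pool 2, a TPM of 56.8 and 40.2, beside 1463 and 1672 counts for Mrpl23 itself. Its counts are not whole, so the authors' estimate divided reads between it and other rows, and the level of Mrpl23 is uncertain to that extent. Mrpl48-ps had 59.1 and 95.64 counts. Mrps36-ps1 had 22.58 and 46.86 counts and Mrps36-ps2 25.94 and 4.92. Mrps36-ps3 was listed at 0 in both pools. All 4 rows with counts were above 3 counts, the upper limit for a count of 0, in each pool. How many of these reads came from the parent genes was not tested.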

How the results depend on the processing

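No paired analysis was possible because the series has a single group of 2 pools. Leaving out pool 1 or pool 2 gave 3.69 to 3.90 for the members' median level and 0.12 to 0.31 for large minus small, and all 77 members stayed detected. Of the values recomputed under the alternatives, 123 stayed the same, 16 moved, 4 lost the threshold and 3 reversed. Same meant within a set margin of the main value, or, for a named gene's pool ratio, past the threshold in the same direction. Part of the 123 was fixed in advance. With 2 pools, a level or difference from a single pool always lies within the SD around their mean. The members' ratio relative to all genes cannot change with scaling, and keeping only detected members kept all 77. At a TPM of at least 10, 38 members were detected in both pools, and 31 of 31 kept their leading transcript. By expected count 52 of 58 did. None of these counts was made for other genes. The median level was 4.10 in FPKM, 3.97 without members whose exons overlap another gene and 3.47 from coding transcripts only. Large minus small was -0.18 without overlapping members, which reversed it, 0.66 from coding transcripts only, 0.42 by structure and 0.040 with the 5 genes of other symbols. The log2 ratio of summed TPM was 0.37 without Mrps33, which reversed it, and -0.09 by structure. The members' median pool ratio relative to all genes was -0.072 with no filter on low counts and -0.029 from TPM + 1. Mrpl44 turned to -0.0097 under spike-in totals. Apart from fewer genes or members entering, the cause was not tested. The coding-transcript and Mrps33 alternatives were chosen after seeing the data. With counts of 91 and up behind each member, depth limited the pool ratios of the lowest genes most, and 14 members had fewer than 300 counts in both pools.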
